A study of Mus musculus with 6 samples.

Results

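Alveolar macrophages live in the air spaces of the lung and clear surfactant and debris. The 9 genes described here encode transcription factors tied to the lineage and identity of macrophages: Spi1, Cebpa, Cebpb, Bhlhe40, Bhlhe41, Maf, Klf4, Runx1 and Irf8. They were chosen by symbol from the 25664 genes of the count table, and all 9 of 9 were found there. Bulk RNA was sequenced from lavage macrophages of Vav1cre/+ Pex5fl/fl mice (called Pex5-deficient here, 3 libraries) and of Pex5fl/fl mice (called control, 3 libraries). Both groups carry the floxed Pex5 alleles, and the recombinase is the difference that the genotype labels give between them. The Vav1 promoter drives the recombinase from the blood stem cell stage on, so every blood cell lineage of the deficient mice may carry the deletion and not the macrophages alone. The labels used here give no sex, age or strain of the mice, and they do not say whether libraries of a group came from separate mice. The comparison asks how the level of these factors differed where PEX5, the receptor that carries most matrix enzymes into peroxisomes, was deleted.

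A macrophage's identity rests on a small set of DNA-binding proteins. PU.1 (encoded by Spi1) opens chromatin at macrophage enhancers together with C/EBP and RUNX proteins, and IRF8 joins PU.1 at composite sites. In alveolar macrophages, the cytokine GM-CSF maintains PU.1, C/EBP proteins and PPAR-gamma. The related basic helix-loop-helix repressors BHLHE40 and BHLHE41, which bind E-boxes, sustain the self-renewal and the identity of these cells in mice. MAF restrains macrophage proliferation. Alveolar macrophages of mice are known for keeping it low, whereas macrophages of the lung tissue express it. KLF4 is a zinc-finger factor of monocyte differentiation that also takes part in the self-renewal network of macrophages with low MAF.

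No factor of the set changed at the threshold used. A total of 8 of the 9 passed the filter on low counts, and 0 of these 8 had an adjusted p under 0.05 in edgeR's quasi-likelihood test (Benjamini-Hochberg adjustment over 11011 genes), where 3.25% of all genes tested were called. At an unadjusted p under 0.05 the count was 2 of 8 (Bhlhe41 and Klf4), beside 18.9% of all genes, and the other tools called 1 (DESeq2, Bhlhe41; 6.86% of all genes) and 0 (limma-voom; 2.94% of all genes). The 3 Pex5-deficient libraries lay wholly outside the range of the 3 control libraries for 4 of 8, beside 26.1% of all genes. These were Bhlhe41 and Klf4, which lay above the control libraries (13% of all genes did), and Runx1 and Irf8, which lay below them (13.1% did). The median log2 fold change of the 8 was 0.19, against -0.00077 over all genes tested.

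Sequences upstream of Bhlhe41, Klf4 and Runx1 are shown because each holds the full E-box CACGTG, the motif that BHLHE40 and BHLHE41 themselves bind. Irf8, the other factor whose groups did not overlap, has no full E-box in its window. Whether the motif goes with a difference in level was not tested. RefSeq promoter windows (GRCm38.p6) were matched for 6 of the 9 factors, and not for Spi1, Bhlhe40 and Maf. This gave 8 windows of the 250 bases before a gene's start. The E-box was found in 3 of these windows, and in 6.02% of all 32851 mouse windows of that length. The 30 bases around it, read 5′ to 3′ on the minus strand on which all 3 genes lie, with the E-box in capitals, are as follows.
Bhlhe41: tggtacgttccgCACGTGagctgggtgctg
Klf4: cgcccccgccccCACGTGcgcggagtttgt
Runx1: catcacttaagtCACGTGattggcaagagc
They lie at chr6:145865556-145865585, chr4:55532640-55532669 and chr16:92826128-92826157 in that order. The motif begins 153 bases before the RefSeq start of Bhlhe41, 182 bases before that of Klf4 and 71 bases before that of Runx1. Before the GENCODE starts it begins 15 bases for Bhlhe41 and 191 bases for Klf4. The longest Runx1 annotation in GENCODE starts further upstream, so that its first exon holds the motif. The letters beside the motif differ among the 3 genes. A match describes these letters and is not a measured binding site.

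The longer upstream stretches of Bhlhe41 and Klf4, the 2 factors whose Pex5-deficient libraries all lay above the control libraries, show how the E-box stands among GC boxes (GGGGCGGGG, on either strand, found in 10.4% of all windows). Capitals mark the E-box and the GC boxes. The Bhlhe41 stretch lies at chr6:145865559-145865670 and the Klf4 stretch at chr4:55532476-55532725, both on the minus strand. Only window bases upstream of both the RefSeq and the GENCODE start are printed, 112 for Bhlhe41 and 250 for Klf4.
Bhlhe41: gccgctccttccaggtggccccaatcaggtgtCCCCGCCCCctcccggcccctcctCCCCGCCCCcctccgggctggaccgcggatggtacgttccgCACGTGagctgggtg
Klf4: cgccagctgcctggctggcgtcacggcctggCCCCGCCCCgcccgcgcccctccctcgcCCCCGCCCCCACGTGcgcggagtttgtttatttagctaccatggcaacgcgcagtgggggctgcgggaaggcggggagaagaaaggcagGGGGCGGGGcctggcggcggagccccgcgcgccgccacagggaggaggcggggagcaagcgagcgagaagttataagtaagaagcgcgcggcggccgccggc
Bhlhe41 holds 2 GC boxes ahead of its E-box. Klf4 holds 3, of which the middle one runs directly into the E-box. Irf8 holds 1 GC box and no full E-box in its window. The motifs GAGGAAG for PU.1-type ETS factors (10.6% of all windows), TTGCNNAA for C/EBP (9.56%), TGTGGTT for RUNX (4.4%) and TGCTGAC for MAF (3.81%), searched on both strands, had no match in any window of the 6 factors.

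Library totals ran from 13325609 to 19413838 counts in the Pex5-deficient libraries and from 14226108 to 18987200 counts in the control libraries. CPM are counts scaled to a common library size. By these totals, 3 counts in a library stand for 0.155 to 0.225 CPM, before the scaling factors used for most CPM here. All 20 of the 20 alveolar macrophage markers checked passed the filter. Among them 5 fell (Siglecf, Fabp1, Ear1, Krt79 and Cidec) and 2 rose (Ctsk and Fabp4), beside 1.51% and 1.74% of all genes, with a median log2 fold change of -0.43. Counts were 7 lower and 2 higher by DESeq2 and 5 lower and 2 higher by limma-voom. When a library was left out the calls were 2 to 6 lower and 0 to 2 higher, and Siglecf, a sialic acid-binding lectin, and Fabp1, a fatty acid carrier, stayed among them each time. Pex5 itself had 31.4, 36.3 and 29.6 CPM in Pex5-deficient libraries, against 33.01, 32.1 and 29.7 CPM in control libraries (log2 fold change 0.04 ± 0.11 SE, adjusted p = 0.891), and a count over the whole gene does not check exons that a floxed allele removes. Pex5-deficient replicate 2 stood apart: its 50 most abundant genes held 30.4% of its counts, against 38.3% to 42.1% in the other 5 libraries, and its scaling factor was 1.34, against 0.899 to 1.03. Several of the factors are also expressed by other blood cells. Markers of neutrophils summed to 126 to 188 CPM in Pex5-deficient libraries and 84.9 to 98.9 CPM in control libraries, with 8 of 14, S100a9 and Ly6g among them, at 0 in every library. Of the 4 tested, 2 rose (Cxcr2 and S100a8; 3 by DESeq2, 1 by limma-voom), and S100a8 was not called without Pex5-deficient replicate 1 or any 1 control library. Markers of dendritic cells summed to 52.2 to 60.5 CPM in Pex5-deficient libraries and 38.5 to 42.2 CPM in control libraries, with 2 of 11 at 0, and 1 of the 3 tested rose (Ccl22; 1 by DESeq2 and 1 by limma-voom), though not without control replicate 1. The part of such cells in the levels below was not tested. In bulk samples, fewer cells of a type and less RNA per cell cannot be told apart.

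Spi1, Runx1 and Irf8, whose proteins act together at macrophage enhancers, had negative fold changes that did not pass the test, and Spi1 was the most abundant of the factors in every library. Spi1, at chr2:91082390-91115756 on the plus strand of GRCm38, had 841, 569 and 749 CPM in Pex5-deficient replicates 1 to 3, against 890, 951 and 784 CPM in control replicates 1 to 3. The groups overlap, since Pex5-deficient replicate 1 exceeded control replicate 3, and the lowest value is that of Pex5-deficient replicate 2. Spi1 averaged 720 ± 138 CPM in Pex5-deficient cells and 875 ± 84.3 CPM in control cells (SD, n = 3 each), a log2 fold change of -0.28 ± 0.19 (SE; 95% interval -0.71 to 0.14; adjusted p = 0.456, edgeR).

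Runx1 and Irf8 varied least among replicates. Runx1, which encodes the RUNX partner of PU.1 at chr16:92601466-92826149 on the minus strand, had 79.0, 85.7 and 76.1 CPM in Pex5-deficient libraries, against 92.4, 99.6 and 87.0 CPM in control libraries. The groups do not overlap, although the highest Pex5-deficient library lies just below the lowest control library. The log2 fold change of Runx1 was -0.21 ± 0.10 (SE; 95% interval -0.45 to 0.02; adjusted p = 0.304, edgeR). Irf8, which encodes the interferon regulatory factor of monocyte and dendritic lineages at chr8:120736358-120756694 on the plus strand, had 123, 118 and 116 CPM in Pex5-deficient libraries, against 125, 154 and 139 CPM in control libraries. Here too every Pex5-deficient library lay below every control library, with the closest pair nearly level. Its log2 fold change was -0.22 ± 0.11 (SE; 95% interval -0.48 to 0.03; adjusted p = 0.319, edgeR). Scaled by library size alone, without correction for the few abundant genes, the differences were -0.03 for Runx1 and -0.06 for Irf8, where that scaling moved the median of all genes by 0.17.

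**Figure D1:**
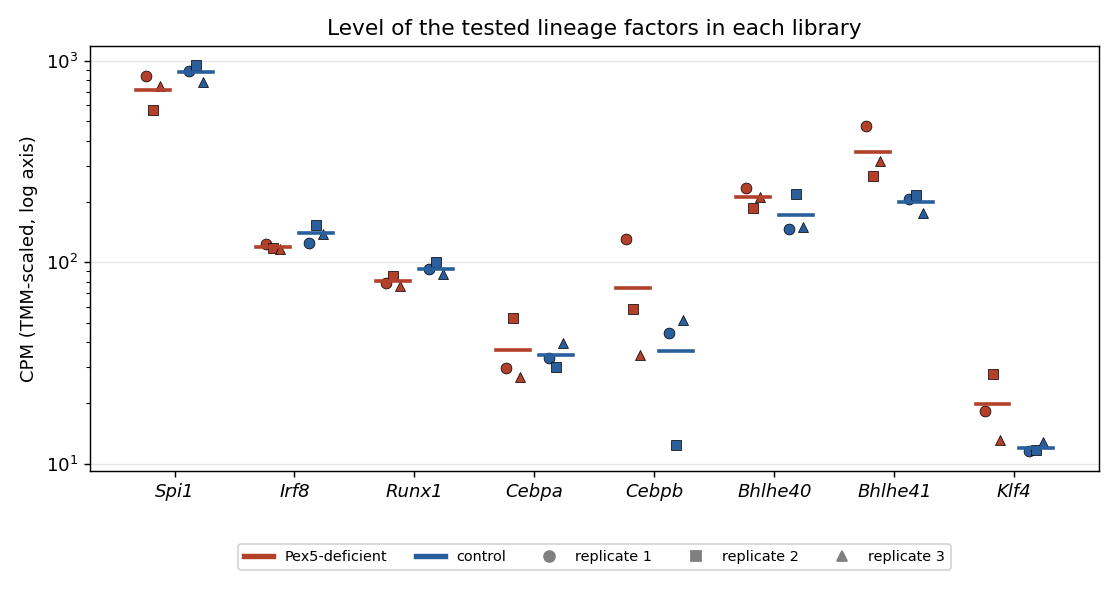
TMM-scaled CPM (log axis) of the 8 tested lineage factors in each library, Pex5-deficient left of control, with circles, squares and triangles for replicates 1 to 3 and bars for means. Spi1 stands highest in every library, from 569 to 951 CPM, and the points of Bhlhe41, Klf4, Runx1 and Irf8 do not overlap between the groups.

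The C/EBP factors, basic leucine zipper proteins of myeloid differentiation, were the least even among replicates. Cebpa, which encodes the factor needed for the myeloid lineage and whose gene lies at chr7:35119293-35121928 on the plus strand, had 29.96, 53.0 and 26.8 CPM in Pex5-deficient libraries, against 33.4, 30.2 and 39.8 CPM in control libraries. The groups overlap, and the one high value belongs to Pex5-deficient replicate 2. Cebpa averaged 36.6 ± 14.3 CPM in Pex5-deficient cells and 34.5 ± 4.89 CPM in control cells (SD, n = 3 each). Its log2 fold change was 0.09 ± 0.24 (SE; 95% interval -0.46 to 0.65; adjusted p = 0.880, edgeR), and -0.27 (adjusted p = 0.335) without Pex5-deficient replicate 2, so its direction rests on that library; the adjusted p ran from 0.335 to 0.997 over all alternatives.

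Cebpb, which encodes the C/EBP factor of inflammatory and stress responses, lies at chr2:167688915-167690418 on the plus strand. It had 130, 58.8 and 34.6 CPM in Pex5-deficient libraries, against 44.4, 12.4 and 51.4 CPM in control libraries. Pex5-deficient replicate 1 is high, control replicate 2 is low, and the other 4 libraries overlap between the groups. Its SD within groups was 1.04 on the log2 scale, at the 99.5th percentile of all genes tested, whose median is 0.205. The log2 fold change of 1.05 ± 0.56 (SE; 95% interval -0.23 to 2.32; adjusted p = 0.352, edgeR) is the largest of the 8 and also the least certain. Leaving out Pex5-deficient replicate 1 gave 0.38 and leaving out control replicate 2 gave 0.63, and it was called when libraries were scaled by size alone (1.17, adjusted p = 0.0159; range over all alternatives 0.0159 to 0.788).

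The levels of immediate early genes and of the overlapping gene Tmem189 were set beside those of Cebpb, and their part in the result was not tested. Fos, an immediate early gene that handling of cells can induce, had 190, 99.8 and 81.8 CPM in Pex5-deficient libraries, against 140, 109 and 91.1 CPM in control libraries. Pex5-deficient replicate 1 is the highest for Fos as well, but control replicate 2, the lowest for Cebpb, is not the lowest for Fos. Of the 18 immediate early genes listed, 15 were tested and 1 rose (Atf3), and their summed level was 521 to 688 CPM in Pex5-deficient libraries and 553 to 743 CPM in control libraries. Tmem189, on the opposite strand, covers 20.7% of the annotated exon bases of Cebpb, and the sources used here do not state whether counting used the strand. By library total, without the scaling factors, Tmem189 had 64.3, 73.5 and 29.4 CPM in Pex5-deficient libraries, against 25.02, 26.8 and 29.97 CPM in control libraries. The factor of 1.34 for Pex5-deficient replicate 2 would lower its value, the highest here, on the scale used for Cebpb.

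The E-box repressors BHLHE40 and BHLHE41 had the clearest difference of the set, and it lay in Bhlhe41. Bhlhe41, at chr6:145858243-145865558 on the minus strand, had 472, 267 and 316 CPM in Pex5-deficient replicates 1 to 3, against 205, 214 and 176 CPM in control replicates 1 to 3. All 3 Pex5-deficient libraries lie above all 3 control libraries, and Pex5-deficient replicate 1 is far the highest. Bhlhe41 averaged 352 ± 107 CPM in Pex5-deficient cells and 198 ± 20.3 CPM in control cells (SD, n = 3 each). The log2 fold change was 0.83 ± 0.21 (SE; 95% interval 0.35 to 1.30), or 1.77-fold, with an unadjusted p of 0.0036 and an adjusted p of 0.0753 (edgeR), above the threshold of 0.05.

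How Bhlhe41 was called depended on the test. DESeq2 called it (adjusted p = 0.00478), as did edgeR with no filter on low counts (0.0334), with scaling by library size alone (0.000142) and without Pex5-deficient replicate 2 (log2 fold change 1.003, adjusted p = 0.0255). Without Pex5-deficient replicate 1 the log2 fold change was 0.56 (adjusted p = 0.163). Over all 14 alternatives it stayed positive, from 0.56 to 1.003, with adjusted p from 0.000142 to 0.214. The predicted gene Gm43909 lies on the opposite strand over 19.0% of the exon bases of Bhlhe41. By library total, without the scaling factors, it had 6.90, 5.67 and 3.09 CPM in Pex5-deficient libraries, against 1.69, 1.16 and 1.95 CPM in control libraries. These levels are far below Bhlhe41 itself.

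Bhlhe40, at chr6:108660629-108666925 on the plus strand, had 235, 185 and 212 CPM in Pex5-deficient libraries, against 146, 217 and 150 CPM in control libraries. The groups overlap, since control replicate 2 exceeded 2 of the 3 Pex5-deficient libraries. It averaged 211 ± 24.8 CPM in Pex5-deficient cells and 171 ± 39.9 CPM in control cells (SD, n = 3 each), a log2 fold change of 0.30 ± 0.17 (SE; 95% interval -0.10 to 0.70; adjusted p = 0.398, edgeR). The balance of the 2 repressors was taken within each library, where scaling between libraries cancels. Bhlhe41 had 2.01, 1.44 and 1.49 counts per count of Bhlhe40 in Pex5-deficient libraries, against 1.402, 0.987 and 1.17 in control libraries. The Pex5-deficient ratios all exceed the control ratios, narrowly so for the nearest pair. The mean log2 ratio was 0.71 ± 0.26 in Pex5-deficient cells and 0.23 ± 0.25 in control cells (SD, n = 3 each), and the difference of 0.47 had p = 0.1 in an exact two-sided permutation test, the smallest p that 3 against 3 libraries allow.

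For the C/EBP pair, Cebpb had 4.35, 1.11 and 1.29 counts per count of Cebpa in Pex5-deficient libraries, against 1.33, 0.411 and 1.29 in control libraries. The ratios overlap, and 1 library of each group stands apart from near-equal values in the rest. The difference of the mean log2 ratios was 1.05 (exact two-sided permutation p = 0.6).

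**Figure D2:**
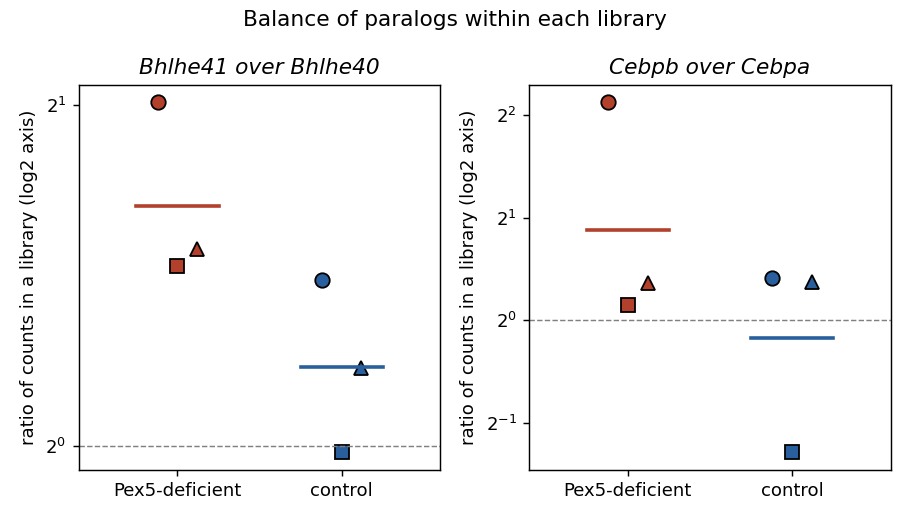
Ratio of counts within each library (log2 axis; circles, squares and triangles for replicates 1 to 3, bars for the mean of the log2 ratios) for Bhlhe41 over Bhlhe40 and for Cebpb over Cebpa, with Pex5-deficient left of control. The Bhlhe41 ratios run from 1.44 to 2.01 in Pex5-deficient libraries and from 0.987 to 1.402 in control libraries, while the Cebpb ratios overlap.

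Maf was near the floor in both groups. This gene, at chr8:115682942-115707794 on the minus strand, had 1, 2 and 4 counts in Pex5-deficient libraries, against 2, 2 and 0 counts in control libraries. These are 7 counts among 50554405 and 4 counts among 47560139, too few for a test or a fold, so a difference was not detectable at this depth. Among the 14 markers listed for monocytes and the macrophages of lung tissue, 4 were at 0 in every library. The 14 summed to 12.6 to 15.6 CPM in Pex5-deficient libraries and 6.99 to 13.8 CPM in control libraries. Of the 2 tested, 0 were called by edgeR or limma-voom, and 1 rose by DESeq2 (Ms4a7). In edgeR 1 had an unadjusted p under 0.05, beside 18.9% of all genes. C1qa, a complement gene that tissue macrophages express at high level, had 2, 0 and 0 counts in Pex5-deficient libraries, against 0, 2 and 0 counts in control libraries.

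Klf4, at chr4:55527143-55532466 on the minus strand, had 18.2, 27.9 and 13.1 CPM in Pex5-deficient libraries, against 11.5, 11.6 and 12.8 CPM in control libraries. The groups do not overlap, but Pex5-deficient replicate 3 is nearly level with control replicate 3, and the highest value is that of the library that stood apart. Klf4 averaged 19.7 ± 7.51 CPM in Pex5-deficient cells and 11.96 ± 0.695 CPM in control cells (SD, n = 3 each), with a log2 fold change of 0.73 ± 0.25 (SE; 95% interval 0.16 to 1.30; unadjusted p = 0.0173, adjusted p = 0.159, edgeR). It was 0.40 (adjusted p = 0.243) without Pex5-deficient replicate 2 and 0.96 (adjusted p = 0.0462, called) without Pex5-deficient replicate 3, within a range of adjusted p from 0.0462 to 0.358 over all alternatives.

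**Figure D3:**
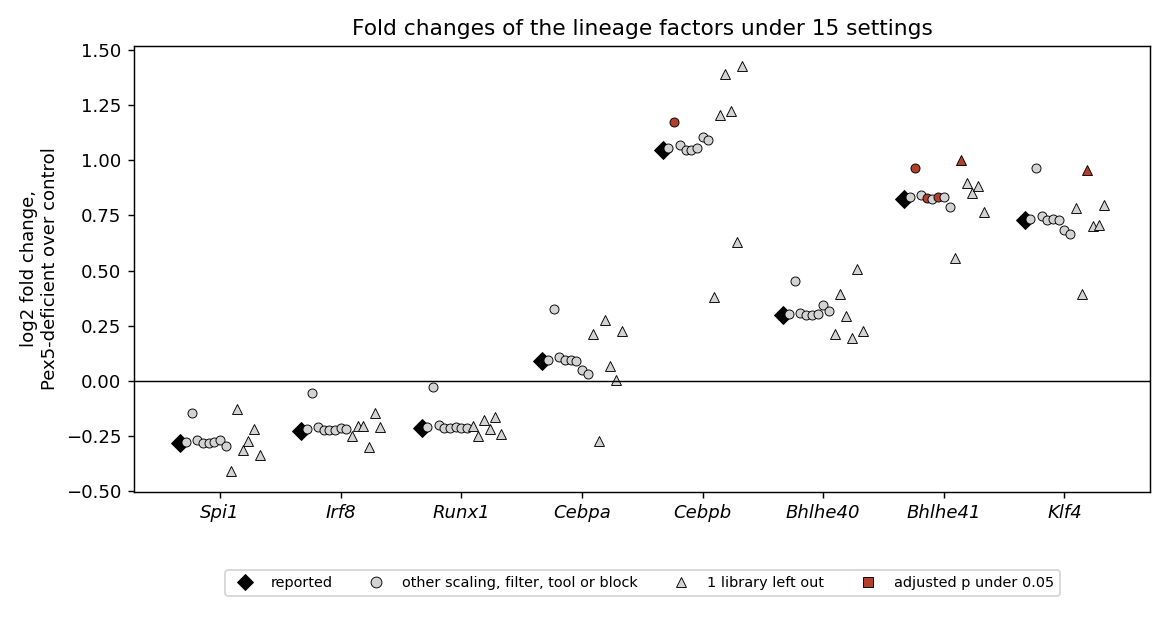
Log2 fold change, Pex5-deficient over control, of the 8 tested factors under the reported test and 14 alternatives (circles for other processing, triangles for 1 library left out, black diamonds for the reported fit), in red where the adjusted p was under 0.05. Bhlhe41 lies between 0.56 and 1.003 throughout, whereas Cebpa falls on both sides of 0.

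Levels of different genes were compared per kilobase of annotated exon. Spi1 led in both groups, with 267 ± 51.4 CPM per kb in Pex5-deficient cells and 325 ± 31.3 CPM per kb in control cells (SD, n = 3 each). In Pex5-deficient cells it was followed by Bhlhe41 (52.4 ± 15.9 CPM per kb), Cebpb (49.6 ± 33.1) and Bhlhe40 (44.8 ± 5.27), whose ranges overlap, then Irf8 (16.9 ± 0.539) and Cebpa (13.9 ± 5.42), which overlap, then Runx1 (6.67 ± 0.409) and Klf4 (6.48 ± 2.46), which overlap. In control cells the order after Spi1 was Bhlhe40 (36.4 ± 8.49 CPM per kb), Bhlhe41 (29.5 ± 3.02), Cebpb (24.0 ± 13.8) and Irf8 (19.7 ± 2.04), each overlapping the next, and then Cebpa (13.1 ± 1.86), Runx1 (7.73 ± 0.529) and Klf4 (3.92 ± 0.228) without overlap. Maf came last in both, at 0.0157 CPM per kb in Pex5-deficient cells and 0.0110 CPM per kb in control cells. Bhlhe41 stood above Bhlhe40 in Pex5-deficient cells and below it in control cells, but their ranges overlap in each.

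**Figure D4:**
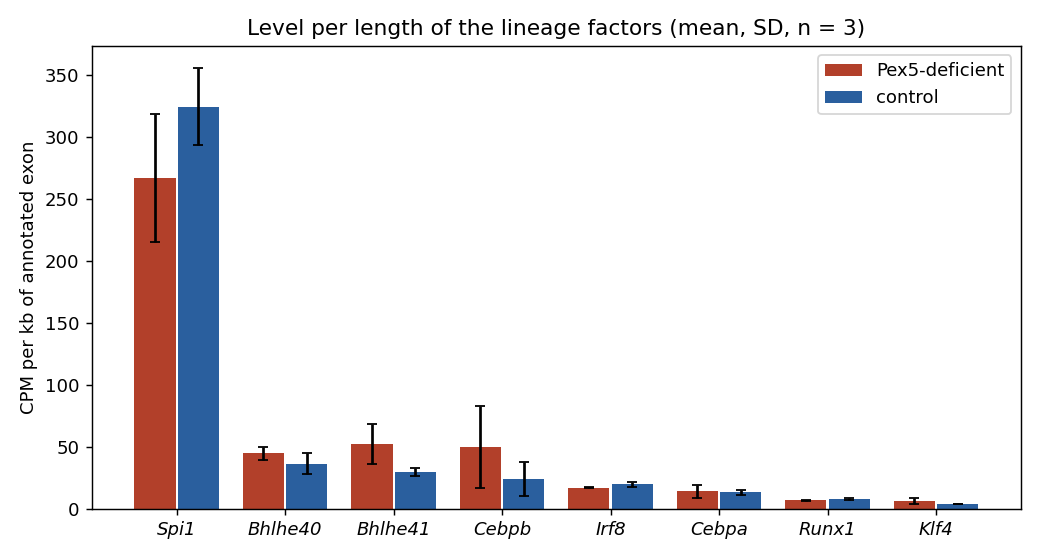
Mean level per kilobase of annotated exon (bars from 0, error bars SD, n = 3) of the 8 tested factors, Pex5-deficient left of control. Spi1 lies far above every other factor, at 267 CPM per kb in Pex5-deficient cells and 325 CPM per kb in control cells, and Bhlhe41 stands at 52.4 CPM per kb in Pex5-deficient cells and 29.5 CPM per kb in control cells.

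Of 127 other factors in 8 lists of families and lineage regulators, 93 were tested, 3 rose (Nr1h3, Epas1 and Atf3) and 0 fell, beside 1.74% and 1.51% of all genes, and their median log2 fold change was -0.07. None of the tested members was called by edgeR, DESeq2 or limma-voom among the ETS factors (0 of 12) or the IRF family (0 of 7). The same held for Runx2, its partner gene Cbfb and Cbfa2t3, listed with the RUNX family (0 of 3). At an unadjusted p under 0.05 the edgeR counts were 2 of 12 ETS, 0 of 7 IRF and 0 of 3 RUNX-list genes, beside 18.9% of all genes. In the C/EBP list, which holds Cebpz by its name, 0 of 4 were called by edgeR (1 unadjusted, 1 by DESeq2, 0 by limma-voom). The gene called by DESeq2 is Ddit3, the stress-induced C/EBP homologue CHOP, with 18.6, 14.7 and 17.2 CPM in Pex5-deficient libraries, against 9.23, 11.9 and 10.9 CPM in control libraries (log2 fold change 0.65 ± 0.15, edgeR adjusted p = 0.0595). All 3 Pex5-deficient libraries lie above the control libraries for Ddit3.

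The small MAF genes Mafg, Mafk and Maff had positive fold changes, and 0 of 3 were called by edgeR (1 by DESeq2, 0 by limma-voom). In edgeR 2 of the 3 had an unadjusted p under 0.05, beside 18.9% of all genes. Mafg, the one that DESeq2 called, which encodes a small MAF partner of NRF2, had 25.8, 25 and 14.7 CPM in Pex5-deficient libraries, against 12.8, 12.2 and 12.6 CPM in control libraries (log2 fold change 0.80 ± 0.21, adjusted p = 0.0816, edgeR). Among KLF genes other than Klf4, 0 of 10 were called by edgeR, 2 by DESeq2 and 0 by limma-voom. An unadjusted p under 0.05 was found for 4 of the 10, beside 18.9% of all genes. Of the 10, 7 had negative fold changes, with a median of -0.50. Klf13, the most abundant of those with a low p, had 240, 210 and 186 CPM in Pex5-deficient libraries, against 385, 286 and 356 CPM in control libraries. Its groups do not overlap, and its log2 fold change of -0.69 ± 0.16 (adjusted p = 0.0523, edgeR) has the sign opposite to that of Klf4. Klf11 had a log2 fold change of -0.73 ± 0.19 (adjusted p = 0.0815, edgeR). With scaling by library size alone the KLF median was -0.29, where that scaling moved the median of all genes by 0.17. Taken from the median of all genes, the KLF median was -0.46 with library size alone and -0.50 in the reported fit.

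**Figure D5:**
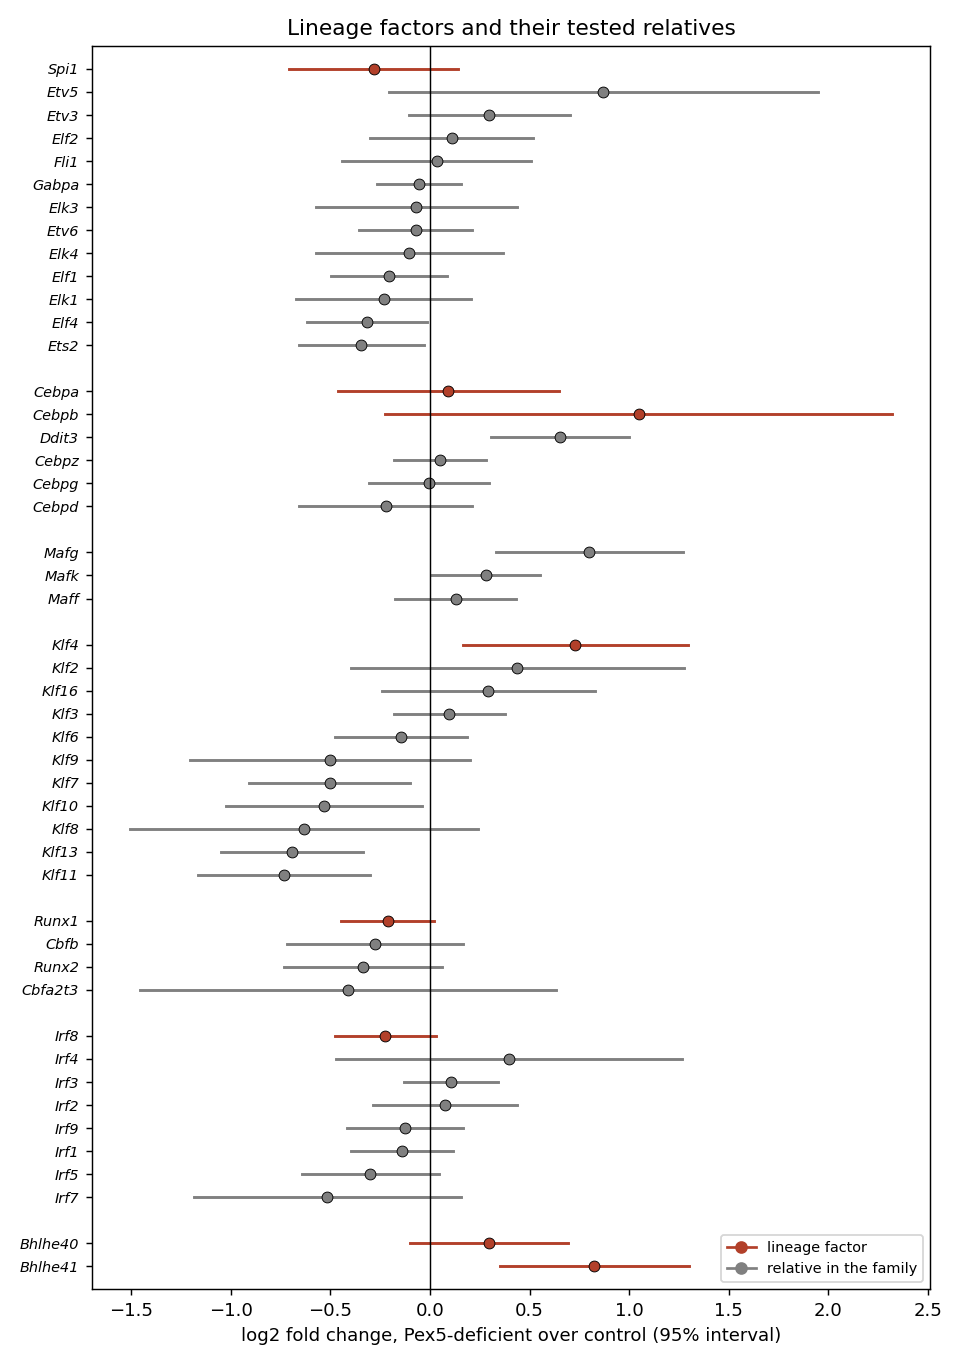
Log2 fold change, Pex5-deficient over control, with 95% intervals, of the lineage factors and of the tested relatives in each family. No gene drawn had an adjusted p under 0.05 in edgeR, and Klf4 lies at 0.73 while most other KLF genes lie below 0.

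Among the other lineage regulators 3 of 35 rose and 0 fell in edgeR, as in limma-voom, while DESeq2 called 3 higher and 2 lower (Nfil3 and Tcf7l2). Of the 35, 25 had negative fold changes, with a median of -0.13, and for 10 every Pex5-deficient library lay below every control library, beside 13.1% of all genes. Nr1h3 encodes the oxysterol receptor LXR-alpha and had 127, 96.5 and 113 CPM in Pex5-deficient libraries, against 46.5, 48.0 and 49.8 CPM in control libraries (log2 fold change 1.22 ± 0.12, adjusted p = 0.00314, edgeR). Epas1 encodes the hypoxia-inducible factor HIF-2-alpha and had 95.8, 85.4 and 121 CPM in Pex5-deficient libraries, against 16.0, 24.5 and 10.2 CPM in control libraries (2.57 ± 0.28, adjusted p = 0.00406). Atf3, a stress-induced repressor, had 52.3, 30.6 and 29.5 CPM in Pex5-deficient libraries, against 13.8, 12.5 and 16.9 CPM in control libraries (1.37 ± 0.23, adjusted p = 0.0203). Each of these 3 had all Pex5-deficient libraries above all control libraries. Nr1h3 and Epas1 kept their calls under all 14 alternatives. Atf3 lost its call without control replicate 1 (0.0978) or 2 (0.0748), within a range of adjusted p from 6.86e-06 to 0.0978 over all alternatives.

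Of 24 genes tied to PU.1, 23 were tested, and 1 rose and 0 fell in edgeR, as in limma-voom. DESeq2 called 1 higher and 2 lower (Csf1r and Coro1a). Of the 23, 19 had negative fold changes and 7 had an unadjusted p under 0.05 (18.9% of all genes did), and the median log2 fold change was -0.20. The gene that rose was Msr1, which encodes a scavenger receptor of modified lipoproteins, with 37.2, 26.1 and 54.9 CPM in Pex5-deficient libraries, against 15.8, 12.1 and 9.65 CPM in control libraries (log2 fold change 1.66 ± 0.28, adjusted p = 0.020, edgeR). The call of Msr1 was lost without Pex5-deficient replicate 1 (0.0648) or without any 1 of control replicates 1 to 3 (0.0546, 0.0706 and 0.0633), within 8.58e-07 to 0.0706 over all alternatives. Csf1r, the receptor of the macrophage growth factor M-CSF and a classic PU.1 target, had 259, 219 and 242 CPM in Pex5-deficient libraries, against 288, 336 and 368 CPM in control libraries (-0.46 ± 0.14, adjusted p = 0.113). The groups do not overlap for Csf1r, but the difference passed the threshold in DESeq2 alone (adjusted p = 0.0365, within 0.0365 to 0.472 over all alternatives).

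Genes tied to RUNX1 gave 2 lower calls among 8 tested of 13 listed, beside 1.51% of all genes (3 by DESeq2, with Csf1r, and 2 by limma-voom). Their median was -0.26, and 4 of the 8 had an unadjusted p under 0.05, beside 18.9% of all genes. Csf2rb encodes the shared chain of the GM-CSF receptor and had 556, 450 and 529 CPM in Pex5-deficient libraries, against 989, 958 and 880 CPM in control libraries (log2 fold change -0.88 ± 0.15, adjusted p = 0.0229, edgeR). Itgal encodes the integrin chain CD11a and had 159, 184 and 178 CPM in Pex5-deficient libraries, against 236, 256 and 271 CPM in control libraries (-0.55 ± 0.12, adjusted p = 0.0427). Both fell in every Pex5-deficient library relative to every control library, while Runx1 itself did not pass the test. Csf2rb lost its call without any 1 library other than Pex5-deficient replicate 2 (adjusted p 0.0546 to 0.115, and 1.34e-08 to 0.119 over all alternatives). Itgal lost it without the same 5 libraries in turn (0.0944 to 0.169), with upper-quartile scaling (0.0503) and with library size alone (0.390, the highest over all alternatives, where 0.000748 was the lowest).

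Of 23 genes tied to C/EBP-alpha and C/EBP-beta, 13 were tested, and 1 rose and 0 fell in edgeR, as in limma-voom, with a median of -0.01 (-0.27 in limma-voom). DESeq2 called 2 higher and 1 lower. Fabp4, a fatty acid carrier, had 186, 171 and 251 CPM in Pex5-deficient libraries, against 61.6, 115 and 43.9 CPM in control libraries (log2 fold change 1.46 ± 0.32, adjusted p = 0.0482, edgeR). Il1rn, the interleukin-1 receptor antagonist, was at -0.71 ± 0.16 (adjusted p = 0.0519) and Trib3, a stress-induced pseudokinase, at 1.48 ± 0.35 (adjusted p = 0.0641). Il1rn passed the threshold in 5 of 14 alternatives (adjusted p 0.00175 to 0.182 over all) and Trib3 in 4 (0.00156 to 0.184), DESeq2, no filter, library size alone and leaving out Pex5-deficient replicate 2 among both. The call of Fabp4 was lost without Pex5-deficient replicate 1 (0.121) or 3 (0.0963), without control replicate 1 (0.185) or 3 (0.104), and with the filter at a mean of 5 CPM (0.0582), within 1.87e-07 to 0.185 over all alternatives.

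Genes tied to IRF8 gave 0 calls among 13 tested in edgeR, as in DESeq2 and limma-voom, with a median of -0.18. In edgeR 3 of these 13 had an unadjusted p under 0.05, beside 18.9% of all genes. Cd74, the invariant chain of antigen presentation, had 260, 168 and 175 CPM in Pex5-deficient libraries, against 599, 236 and 1111 CPM in control libraries (log2 fold change -1.69 ± 0.47, adjusted p = 0.0961, edgeR). It was called with library size alone (6.7e-06), with no filter (0.0308) and without control replicate 2 (-2.09, adjusted p = 0.0215), while leaving out control replicate 3 gave -1.03 (0.231, the highest over all alternatives). Its control libraries differ several-fold among themselves, and control replicate 2 lies below Pex5-deficient replicate 1. Of 21 genes tied to MAF, 20 were in the table, 7 passed the filter and 3 were at 0 in every library. In edgeR 0 were called, as in limma-voom, and 4 had an unadjusted p under 0.05, beside 18.9% of all genes. Fold changes of the 7 ran from -1.98 to 0.87 (log2). DESeq2 called 2, Axl lower and Ms4a7 higher, beside 6.86% of all genes. Ms4a7 was at 0.61 to 1.18 over all alternatives (adjusted p 0.0327 to 0.279). Pf4 was at -2.30 to -1.74 (0.0589 to 0.276) in the alternatives that tested it. Axl, a receptor for dying cells that alveolar macrophages express strongly, had a log2 fold change of -0.74 ± 0.20 (adjusted p = 0.0862; 1.92e-05 to 0.296 over all alternatives, of which DESeq2, library size alone and leaving out Pex5-deficient replicate 2 called it).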

How the data were processed

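The deposited table holds whole-number read counts per gene that the authors made, 1 column per library and 25664 genes by symbol. The submitters' processing notes name DESeq2 1.40.1, R 4.3.2, featureCounts and STAR, and as builds mm10 and GRCm38.p5. The sources used here do not give the aligner's and counter's versions, the annotation or the strand setting, so reads of overlapping antisense genes cannot be told apart. Per the labels' protocols, RNA of 50000 sorted cells per sample went into a stranded SMART-Seq library, read single-end at 100 bp. Such kits amplify by PCR, so counts are reads, not molecules, and a floor of 3 counts covers counting error only.

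Libraries were grouped by genotype label. No label says that a group's samples are separate mice, and p-values measure the spread between these samples, which may be technical. Genes passed edgeR's filterByExpr (minimum count 10, minimum total 15), were scaled by TMM (trimmed mean of M values) and tested with glmQLFit and glmQLFTest (R 4.3.3, edgeR 4.0.16, two-sided), with p-values adjusted by Benjamini-Hochberg over 11011 genes and a threshold of 0.05. CPM use the scaled library sizes and are given as mean ± SD. Standard errors come from the F statistics, fold changes set Pex5-deficient over control, and the steps were tested on simulated counts. Paralog ratios used an exact permutation test. The alternatives were other scalings (relative log expression, upper quartile, library size alone), no filter, a mean of at least 5 CPM, DESeq2 1.42.0, limma-voom (limma 3.58.1), a replicate block and leaving out each library.

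Exon lengths and positions come from GENCODE mouse release M21 (GRCm38), and promoter windows from RefSeq (GRCm38.p6). No 100-base word of a factor's longest transcript occurred in the transcripts of another gene, both read in the sense direction. Words on the opposite strand were not searched. The factors, lists and tests were chosen with earlier results of these data known. Beside the 9 factors and Pex5, genes were named by rule: in each factor or target list the 3 with the smallest p and the most abundant, in marker lists the most abundant, and the 2 factors nearest in level pattern to each factor. Genes named after their values were seen, or for their role, are C1qa, S100a9, Ly6g, Siglecf, Fabp1, Ear1, Krt79, Cidec, Ctsk, Cxcr2, S100a8, Nfil3 and Coro1a and the genes overlapping a factor. A gene of these lists is not reported here.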

Additional observations from a re-analysis of the deposited data

How the results depend on the processing

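All 8 tested factors except Cebpa kept their direction under all 14 alternatives. The number called among them was 0 in the reported fit and 2 with library size alone (Cebpb and Bhlhe41), beside 3.82% of all genes. It was 1 with no filter (3.19% of all genes) and 1 with DESeq2 (6.86%), Bhlhe41 in both. When a library was left out it was 0 to 1, beside 0.675% to 4.75% of all genes. Over all genes the count (358) was 755 with DESeq2, 83 with the replicate block and 76 to 523 when a library was left out. The distinct genes called in the factor and target lists (8) numbered 16 with library size alone, 17 with no filter, 22 with DESeq2, 2 with the replicate block and 2 to 17 when a library was left out. When a library was left out, log2 fold changes changed sign for Cebpa (-0.27 to 0.28), Pex5 (-0.039 to 0.10), Lyz2 (-0.17 to 0.24, and 0.11 without control replicate 2), Ctsc (-0.35 to 0.063), Clec7a (-0.45 to 0.17), Fli1 (-0.10 to 0.24, with -0.037 and -0.084 among them), Cbfa2t3 (-0.77 to 0.32), Fos (-0.32 to 0.35) and Chil3 (-0.084 to 0.47). Library size alone did so for Irf1 (0.054), Usf1 (0.027) and Lyz2 (0.096), and the upper quartile for Lyz2 (0.0016). The cause was not tested.

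Library size alone moved the median of all genes by 0.17 and the calls to 289 higher and 132 lower, against 192 higher and 166 lower. Deviations of same-numbered libraries from their group means correlated at -0.21, -0.06 and -0.41, and those of differently numbered libraries at -0.19 to 0.40. Such correlations cannot show whether samples were collected or prepared in pairs. With the replicate block the log2 fold change of Bhlhe41 was 0.79 (adjusted p = 0.166), and Atf3 (0.0572), Msr1 (0.067), Csf2rb (0.119), Itgal (0.154), Fabp4 (0.123) and Kdm5b (0.0864) were not called. The Bhlhe41 to Bhlhe40 difference was 0.32 to 0.60 and the Cebpb to Cebpa difference 0.43 to 1.41 when a library was left out. With 3 libraries a group, depth limits Maf, and spread limits Cebpb.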

Other observations

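BHLHE40 and BHLHE41 also act on the circadian clock, where they repress E-box genes driven by BMAL1 and CLOCK. Of 17 clock genes listed, 13 were tested and 0 were called by edgeR, DESeq2 or limma-voom, with a median log2 fold change of -0.11. In edgeR 3 of the 13 had an unadjusted p under 0.05, beside 18.9% of all genes. Per1, a repressor of the clock's negative limb, had 8.99, 16.3 and 8.87 CPM in Pex5-deficient libraries, against 21.4, 20.0 and 16.6 CPM in control libraries (log2 fold change -0.75 ± 0.24, adjusted p = 0.139, edgeR). Arntl, which encodes BMAL1, had 7.67, 9.83 and 6.27 CPM in Pex5-deficient libraries, against 11.2, 12.9 and 10.9 CPM in control libraries (-0.55 ± 0.19, adjusted p = 0.168). Both had every Pex5-deficient library below every control library, as 3 of the 13 did, beside 13.1% of all genes. Neither passed the test. Without Pex5-deficient replicate 2, Per1 did (-1.10, adjusted p = 0.0118, within 0.0118 to 0.517 over all alternatives). The sources used here do not give the hour of lavage.

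In the self-renewal network of macrophages with low MAF, all 16 of 16 genes listed were tested, the lineage factor Klf4 among them. Of these 16, 0 rose and 1 fell, with a median of 0.08. The gene that fell was Kdm5b, a histone demethylase, with 1.41, 3.87 and 3.62 CPM in Pex5-deficient libraries, against 7.35, 8.25 and 9.59 CPM in control libraries (log2 fold change -1.46 ± 0.32, adjusted p = 0.0493, edgeR). The call of Kdm5b was lost with the filter at a mean of 5 CPM (0.0561) and without any 1 library other than Pex5-deficient replicate 2 (0.0648 to 0.145, and 0.000552 to 0.145 over all alternatives). Myc, a growth factor-responsive activator of the network, was at 0.42 ± 0.13 (adjusted p = 0.126), and Top2a, a gene of dividing cells, at -0.50 ± 0.12 (adjusted p = 0.0654). Of 21 other helix-loop-helix factors, 19 were tested and 0 were called by edgeR (1 by DESeq2, 0 by limma-voom). In edgeR 3 of the 19 had an unadjusted p under 0.05, beside 18.9% of all genes. The gene called by DESeq2 was Mxi1, a MAX partner that opposes MYC. Mxi1 had 21.8, 27.1 and 24.0 CPM in Pex5-deficient libraries, against 18.9, 14.9 and 15.9 CPM in control libraries (0.56 ± 0.14, edgeR adjusted p = 0.0681).

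The factors whose levels followed each lineage factor most closely over the 6 libraries were found as those with the smallest root mean square difference of centred log2 CPM among 100 candidates. For Runx1 and Irf8 they were the same genes, Creb5 (0.0516 from Runx1 and 0.0622 from Irf8) and Stat5b (0.0749 from Runx1 and 0.0668 from Irf8). For Bhlhe41 they were Ddit3 (0.219) and Nr1h3 (0.276), and for Klf4 Mafg (0.202) and Max (0.229). For Spi1 they were Nfe2l2 (0.153) and Ets2 (0.160), for Cebpa Mnt (0.121) and Elk3 (0.151), and for Bhlhe40 Mafk (0.172) and Tfeb (0.181). For Cebpb they were Lmo2 (0.637) and Atf3 (0.649). The root mean square deviation of Cebpb itself was 1.01 and that of Runx1 0.130, so distances are not compared between factors. All these values share the same 6 libraries and their scaling.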
